A study of Homo sapiens with 6 samples.

Results

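The genes that make, destroy and read cyclic AMP were examined in U87-MG, an established human glioblastoma cell line, by RNA sequencing. Members were taken by gene symbol and not by any measured value, which gave 60 of the 61806 genes in the deposited table. They are 10 adenylyl cyclases, 23 genes of the phosphodiesterase symbols, 2 catalytic and 4 regulatory subunits of protein kinase A (PKA), 13 A-kinase anchoring proteins, 6 transcription factors or coactivators and 2 exchange factors. All 6 libraries came from U87-MG cells, with no drug or time point in the labels. The 3 NC libraries carry the genotype wildtype in the labels, and the 3 libraries labelled GRIK1 siRNA carry the genotype GRIK1 knockdown. The study asked what lies downstream of GRIK1, a kainate-type glutamate receptor subunit. The study's methods describe siRNA transfection with several siRNA sequences and the series' design text names shRNA, and the labels do not settle whether the numbers 1, 2 and 3 are replicates or siRNA sequences. The study's text says that its most efficient sequence was carried into later experiments, without tying it to these libraries. They were treated as replicate numbers, and nothing states that they came from separate cultures, so p-values measure only the spread between these libraries, which may be technical.

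Total counts per library lay between 11099909 and 14006968. GRIK1 itself was counted 18, 9 and 8 times in NC libraries 1, 2 and 3 and 15, 20 and 20 times in the libraries labelled GRIK1 siRNA 1, 2 and 3. Thus the targeted transcript was not lower in the libraries labelled as its knockdown (0.44 ± 0.43 on the log2 scale, value and standard error, with an adjusted p of 0.62 in the quasi-likelihood test of edgeR on unfiltered genes), and every direction below is that of the labels. NC library 3 stood apart from the other 5 libraries. Ribosomal protein genes took 9.37% of its counts, 5.24% in NC library 1, 5.50% in NC library 2, and 4.79% to 4.86% where GRIK1 siRNA is the label. Its normalized level lay outside the range of the other 5 libraries for 32 of the 36 tested cyclic AMP genes (88.9%) and for 71.4% of all tested genes. The main values below are therefore given with all 6 libraries, and the counts of calls and the members described by library also without NC library 3. Of 12 mesenchymal markers typical of U87-MG, 11 had a mean of at least 0.5 FPKM. The summed level of all 12 was 4406 to 4589 FPKM in NC and 4711 to 5062 FPKM in the libraries labelled GRIK1 siRNA. FPKM is a level per length, the count of a gene scaled to its exonic size and to the total count of the library. Of 12 astrocyte and oligodendrocyte markers, 2 were tested. The summed level of all 12 was 3.45 to 4.82 FPKM in NC and 3.17 to 3.78 FPKM in the libraries labelled GRIK1 siRNA. SLC1A3, a glutamate transporter and the most abundant of them, fell by 0.68 on the log2 scale (adjusted p = 0.0378, edgeR). Of the 2 tested markers, 1 had a positive and 1 a negative log2 fold change, with a median of -0.30. Over all tested genes, 1.48% were called lower. Without NC library 3, 0 of the 2 were called higher and 1 lower, with a median of -0.39, beside 16.9% and 18.3% of all tested genes. GFAP was at 0.05 to 0.28 FPKM, and ALDH1L1, AQP4 and OLIG1 had 0 counts in all libraries. The part of these markers in the results was not tested. In bulk RNA, fewer cells expressing a gene and less RNA per cell cannot be told apart.

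Cyclic AMP is a diffusible second messenger that adenylyl cyclases make from ATP when stimulatory G proteins, calcium or bicarbonate activate them. Phosphodiesterases hydrolyse it, and the balance of both enzyme classes sets its level near each membrane or organelle. Cyclic AMP binds the regulatory subunits of PKA and releases the catalytic subunits, which anchoring proteins hold close to their substrates. PKA phosphorylates CREB-family factors in the nucleus, where CRTC coactivators join them, and the exchange factors RAPGEF3 and RAPGEF4 carry the signal to the small GTPase Rap independently of PKA. In glial and glioma cells, cyclic AMP is known for its effects on cell shape and growth.

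Of the 60 genes, 36 had a mean of at least 0.5 FPKM and were tested, and 24 were below this level. ADCY7, PDE2A and AKAP9 rose in the libraries labelled GRIK1 siRNA, while 0 of the 36 were called lower (edgeR quasi-likelihood test, Benjamini-Hochberg adjusted p under 0.05 over all 15870 tested genes). These 3 genes also exceeded an absolute log2 fold change of 1, and each had a mean above 0.5 FPKM in the NC group alone. They are an enzyme that makes cyclic AMP, an enzyme that destroys it, and a scaffold that holds PKA. The 3 of 36 are 8.33%, beside 1.61% of all tested genes called higher and 0.870% called higher with a log2 fold change over 1. Of all tested genes, 1.48% were called lower. At an unadjusted p under 0.05, 5 of the 36 were higher and 3 lower, together 22.2%, beside 25.1% of all tested genes in both directions. DESeq2 called 5 higher (13.9%) and 0 lower, beside 5.44% and 5.17% of all tested genes. These calls depended on the libraries. Leaving out any 1 of NC libraries 1 and 2 and the libraries labelled GRIK1 siRNA left 0 of the 36 called in edgeR. The same fits called 0 of all tested genes. An unadjusted p under 0.05 was found for 5 to 9 of the 36 and for 2238 to 4434 of all tested genes. Adjusted p reached 0.201 for ADCY7, 0.206 for PDE2A and 0.233 for AKAP9 (edgeR). Leaving out NC library 3 gave 15 calls, these 3 among them, and 5591 calls over all tested genes. That fit called 16.9% of all tested genes higher and 18.3% lower, and its calls below stand beside these shares.

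Regions before a RefSeq start of each of these 3 genes are shown because they are the members that passed the test. They are read from the RefSeq promoters of GRCh38.p14, 5′ to 3′ on the strand of the gene, leaving out bases that an annotated exon covers. They lie at chr16:50266396-50266515 on the plus strand for ADCY7, at chr11:72674592-72674672 on the minus strand for PDE2A, and at chr7:91940720-91940839 on the plus strand for AKAP9. That of ADCY7 is before an internal start, inside the gene as the deposited table places it, while those of PDE2A and AKAP9 lie outside the deposited gene bounds.
ADCY7: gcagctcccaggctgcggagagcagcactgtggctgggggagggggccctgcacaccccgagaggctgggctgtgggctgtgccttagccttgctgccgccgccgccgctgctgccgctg
PDE2A: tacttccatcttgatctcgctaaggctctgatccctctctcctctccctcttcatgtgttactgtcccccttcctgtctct
AKAP9: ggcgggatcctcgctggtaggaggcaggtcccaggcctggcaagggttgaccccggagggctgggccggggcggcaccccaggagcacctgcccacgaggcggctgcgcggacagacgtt

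The CREB-family factors are known to bind the palindrome TGACGTCA, called the cyclic AMP response element. This palindrome was searched on both strands in the 250 bases before each RefSeq start, which were found for 52 of the 60 genes. It was present in 3 of 134 promoters of the cyclic AMP genes (2.24%), against 578 of 35116 promoters of all genes (1.65%). The 3 matches are those of PDE7B, CREM and PRKAR1A, shown here with the palindrome in capitals. They lie at chr6:135851530-135851569, chr10:35195842-35195869 and chr17:68512371-68512398, each on the plus strand. Those of CREM and PRKAR1A are before internal starts, inside the genes as the deposited table places them, and annotated exons cover 5 and 20 of their 28 printed bases.
PDE7B: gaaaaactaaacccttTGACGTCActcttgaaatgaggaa
CREM: agctgcacatTGACGTCAgctccgagtc
PRKAR1A: cgaggcgcatTGACGTCAgtagccgaac

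The promoters of ADCY7, PDE2A and AKAP9 held 0 copies of the palindrome in this window, which describes these letters only. The shorter core TGACG, which lies within the palindrome, was found on either strand in 26 of the 134 promoters (19.4%) and in 21.2% of all promoters. One of the promoters of AKAP9, before an internal start, held this core.

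The members differed in level by more than the libraries did. In mean FPKM over the 6 libraries, 8 genes were at 10 or more, 28 lay between 0.5 and 10, and 24 were below 0.5. The 8 were ADCY8, PDE8A, PRKAR1A, PRKAR2A, AKAP11, AKAP12, ATF1 and CRTC2. The low genes included 5 of the 10 cyclases (ADCY1, ADCY2, ADCY4, ADCY5 and ADCY10), 13 of the 23 phosphodiesterase genes and 5 of the 13 anchoring proteins. In GENCODE 29, other genes on the same strand cover 70.7% of the exonic bases of PDE4C and 26.4% of those of PDE11A, both low. For PDE8B, which was tested, the share is 41.6%. The sources used here do not state how reads in shared exons were counted. AKAP4, AKAP14 and PDE3A had 0 counts in all 6 libraries, which allows up to 3 counts per library for counting error only.

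**Figure D1:**
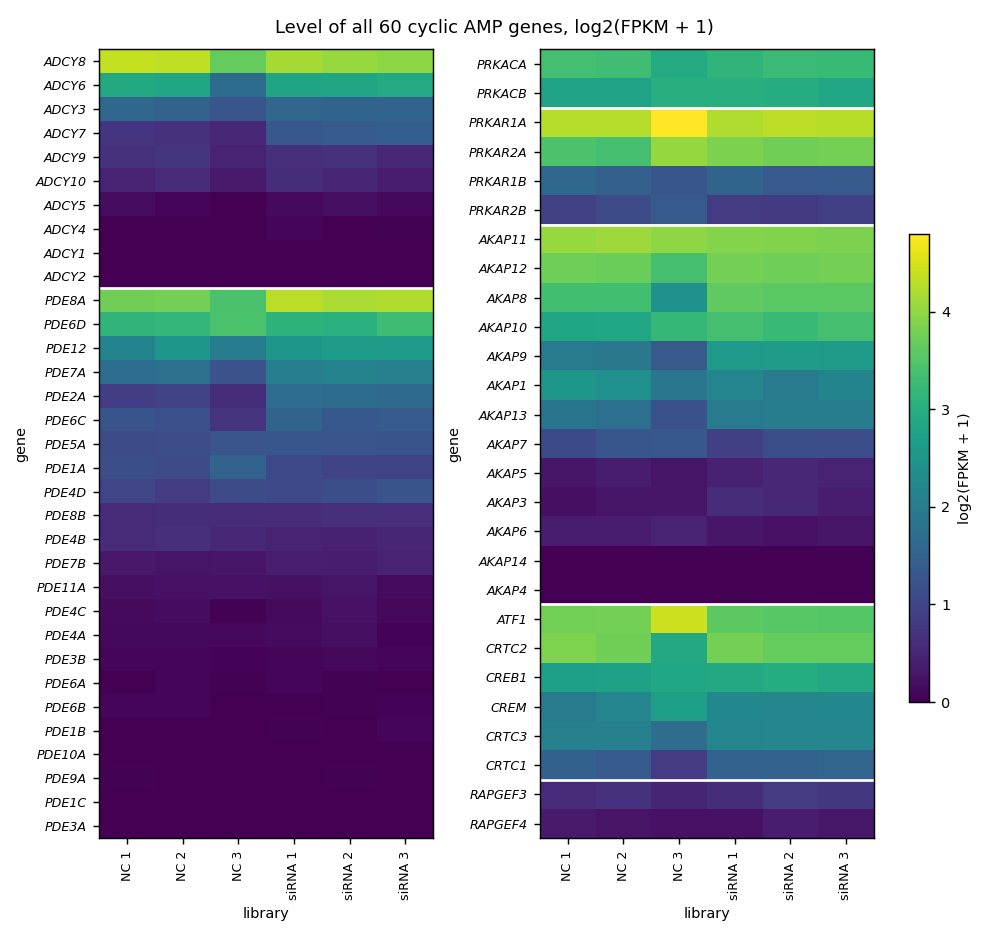
Level of the 60 cyclic AMP genes in each of the 6 libraries, as log2(FPKM + 1) by colour, with genes grouped by role. PRKAR1A and ADCY8 have the highest means, NC library 3 differs in shade from its neighbours for many genes, and 24 genes are below a mean of 0.5 FPKM.

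Adenylyl cyclases make cyclic AMP, and ADCY8 was the most abundant of them in U87-MG cells. ADCY8, a calcium-stimulated cyclase known from brain, stood at 19.68, 19.22 and 11.60 FPKM in NC libraries 1, 2 and 3 and at 16.79, 15.62 and 14.82 FPKM in the libraries labelled GRIK1 siRNA 1, 2 and 3. NC library 3 was the lowest of all 6, so the groups overlapped. The log2 fold change was -0.17 (adjusted p = 0.563, edgeR). When NC library 3 was left out, ADCY8 fell by 0.33 on the log2 scale (adjusted p = 0.000594, edgeR). ADCY8 made up 57.3% to 70.7% of the summed FPKM of all 10 cyclases.

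ADCY7, a cyclase whose response to stimulatory G proteins is enhanced by G protein beta-gamma subunits, was the cyclase that rose. Its levels were 0.68, 0.61 and 0.47 FPKM in NC and 1.46, 1.59 and 1.69 FPKM in the libraries labelled GRIK1 siRNA. All 3 of the latter lay above all 3 NC libraries, at means of 0.587 ± 0.107 and 1.58 ± 0.115 FPKM (SD, n = 3 each). ADCY7 was 2.55-fold higher (log2 fold change 1.35, SE 0.17, where SE is the standard error of the log2 value, adjusted p = 0.0236, edgeR) and 2.41-fold higher without NC library 3. The counts behind these levels were 57 to 65 in NC and 155 to 192 in the libraries labelled GRIK1 siRNA. ADCY7 lies on the plus strand at chr16:50246137-50318135, and exons of BRD7 on the opposite strand cover 41.6% of its exonic bases in GENCODE 29. The sources used here do not state whether counting used strand, and BRD7 itself had a log2 fold change of 0.10.

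The order of the cyclases by level was ADCY8, ADCY6, ADCY3, ADCY7 and ADCY9. The ranges of the first 3 did not overlap over the 6 libraries, while those of ADCY3 and ADCY7 and those of ADCY7 and ADCY9 did. ADCY6, a cyclase inhibited by calcium and by inhibitory G proteins, was at 5.96 to 6.60 FPKM in 5 libraries and at 2.24 FPKM in NC library 3. ADCY6, ADCY3 and ADCY9 had log2 fold changes of 0.27, 0.03 and -0.08 and did not pass the test in either fit. The summed level of the 10 cyclases was 25.2 ± 7.62 FPKM in NC and 26.6 ± 0.803 FPKM in the libraries labelled GRIK1 siRNA, a ratio of 1.06, and the ratio to NC libraries 1 and 2 alone was 0.899. The lower NC total was that of library 3, at 16.42 FPKM.

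Phosphodiesterases hydrolyse cyclic nucleotides, and PDE2A was the one that rose. PDE2A acts on cyclic AMP and cyclic GMP and is stimulated by cyclic GMP through its GAF domains. Its levels were 0.84, 0.99 and 0.55 FPKM in NC and 2.27, 2.25 and 2.16 FPKM in the libraries labelled GRIK1 siRNA. The groups did not overlap, with means of 0.793 ± 0.224 and 2.23 ± 0.0586 FPKM (SD, n = 3 each). PDE2A was 2.68-fold higher (log2 fold change 1.42, SE 0.19, adjusted p = 0.0268, edgeR) and 2.39-fold higher without NC library 3. It was counted 55 to 79 times in NC and 202 to 205 times in the libraries labelled GRIK1 siRNA. PDE2A lies on the minus strand at chr11:72576141-72674591. The antisense gene PDE2A-AS1 was counted 1, 0 and 0 times in NC and 0, 10 and 9 times in the other group, and without strand its reads cannot be told apart from those of PDE2A where their exons overlap.

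PDE8A, a high-affinity enzyme specific for cyclic AMP, was the most abundant phosphodiesterase. It stood at 12.52, 12.95 and 9.69 FPKM in NC and at 18.62, 17.30 and 17.73 FPKM in the libraries labelled GRIK1 siRNA. The groups did not overlap, yet the log2 fold change of 0.53 (SE 0.12) just missed the threshold (adjusted p = 0.0572, edgeR). PDE8A passed in DESeq2 (adjusted p = 0.00205), in edgeR without NC library 3 (log2 fold change 0.46, adjusted p = 4.13e-06) and in edgeR when the filter was raised to a mean of 1 FPKM. PDE8A and PDE6D overlapped in level, with PDE8A the higher in 5 of 6 libraries.

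PDE7A, also specific for cyclic AMP, had a log2 fold change of 0.62 with groups that did not overlap (adjusted p = 0.109, edgeR), and passed in DESeq2 (adjusted p = 0.0456). PDE4D, a rolipram-sensitive enzyme of the same specificity, had 0.21 with overlapping groups. Without NC library 3, PDE2A, PDE4D, PDE7A and PDE8A rose, 4 of the 10 tested genes of this role, in a fit that called 16.9% of all tested genes higher and 18.3% lower. PDE1A, a calcium-calmodulin-stimulated enzyme, pointed the other way at -0.57 (adjusted p = 0.218, edgeR) and -0.23 without NC library 3, with NC library 3 the highest at 1.85 FPKM. The remaining tested genes were PDE5A (0.06), PDE8B (-0.01), PDE6C (0.56), PDE6D (-0.21) and PDE12 (0.34), as log2 fold changes that did not pass the test.

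Several of these symbols name proteins that do not act on cyclic AMP. PDE5A, PDE6A, PDE6B, PDE6C and PDE9A are specific for cyclic GMP, PDE6D is a carrier of lipid-modified proteins, and PDE12 trims RNA in mitochondria. Without these 7 genes, the summed level of the 16 others was 19.51, 20.04 and 16.14 FPKM in NC and 27.89, 27.03 and 27.18 FPKM in the libraries labelled GRIK1 siRNA. The ratio of the means was 1.47, and 1.38 against NC libraries 1 and 2 alone. PDE8A supplied 60.04% of this sum in NC library 3 and 64.0% to 66.8% in the others. Over all 23 genes the means were 33.3 ± 2.13 and 43.5 ± 0.979 FPKM (SD, n = 3 each), a ratio of 1.30.

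**Figure D2:**
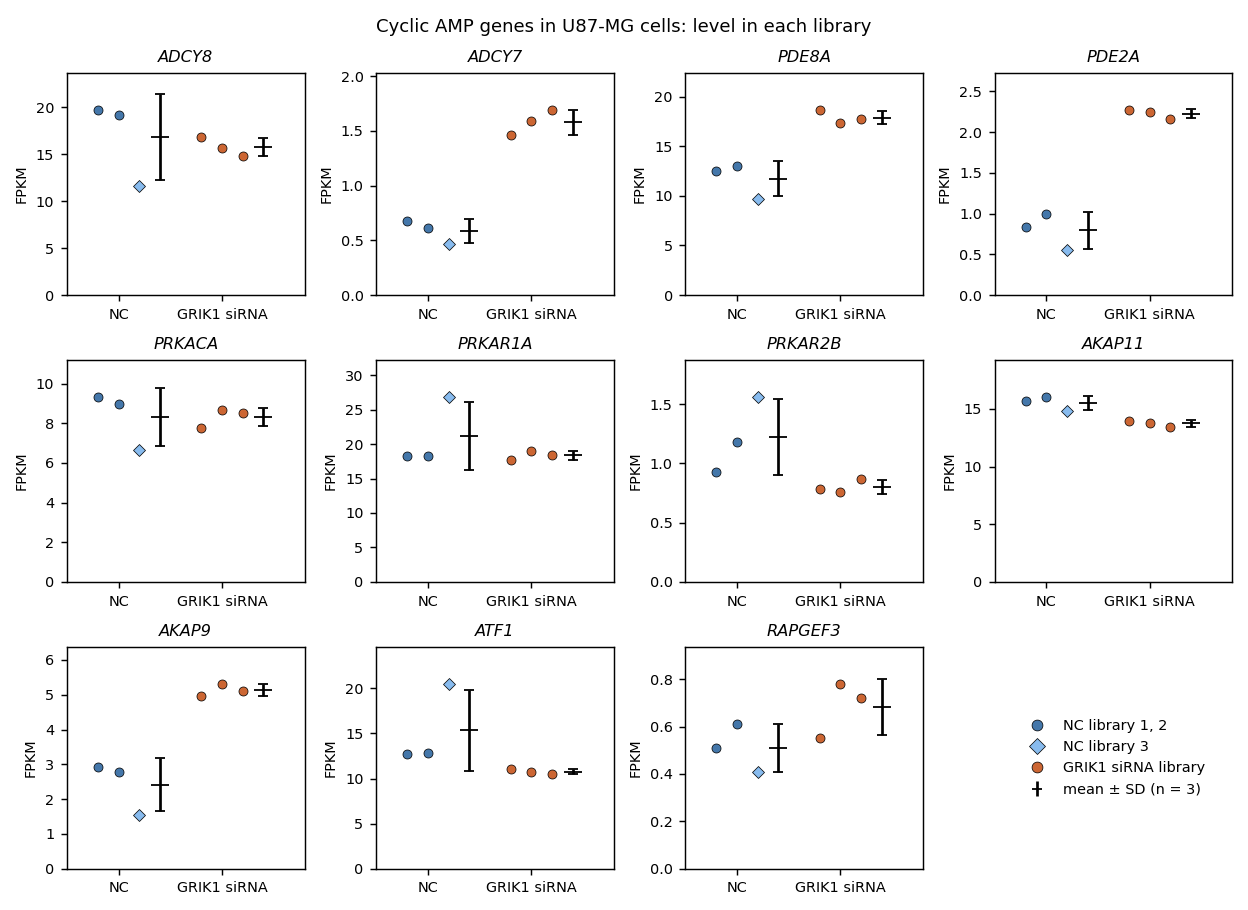
FPKM of the 11 cyclic AMP genes given in every library, with 1 point per library and a dash with its error bar at the group mean ± SD, each panel with its own axis from 0. ADCY7, PDE2A and AKAP9 show no overlap between the groups, and NC library 3 is the lowest NC point for each of them.

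The catalytic subunits carry the kinase activity of PKA, and neither passed the test. PRKACA, the alpha subunit, stood at 9.32, 8.98 and 6.63 FPKM in NC and at 7.78, 8.67 and 8.50 FPKM in the libraries labelled GRIK1 siRNA. The groups overlapped, and the log2 fold change was -0.08 (SE 0.13, edgeR adjusted p = 0.733). PRKACA was at -0.16 without NC library 3 (adjusted p = 0.0720, edgeR). PRKACB, the beta subunit, was at 5.81 to 7.03 FPKM with a log2 fold change of 0.01. PRKACA was the higher of both in 5 of 6 libraries, NC library 3 being the exception. The ratio of their summed levels, libraries labelled GRIK1 siRNA to NC, was 1.03 in FPKM. Summed normalized counts, scaled as for the fold changes, gave a ratio of 0.972.

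Regulatory subunits hold the catalytic subunits inactive, and PRKAR1A had the highest mean level of the 60 genes, at 17.68 to 26.82 FPKM over the libraries. PRKAR1A, the type I alpha subunit, stood at 18.23, 18.28 and 26.82 FPKM in NC and at 17.68, 18.98 and 18.42 FPKM in the libraries labelled GRIK1 siRNA. The high value is that of NC library 3, and the other 5 libraries lay close together. The log2 fold change was -0.31 (adjusted p = 0.389, edgeR) with all libraries and -0.02 without NC library 3.

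PRKAR2B, the type II beta subunit, had the most negative log2 fold change of the 36 genes at -0.72 (SE 0.27), and did not pass the test (adjusted p = 0.164, edgeR). Its levels were 0.93, 1.18 and 1.56 FPKM in NC and 0.78, 0.76 and 0.87 FPKM in the libraries labelled GRIK1 siRNA. The groups did not overlap, and NC library 3 was the highest. The value without NC library 3 was -0.42 (adjusted p = 0.170, edgeR).

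PRKAR2A, the type II alpha subunit, was at 9.39 to 15.54 FPKM in NC, with library 3 the highest, and at 13.41, 12.49 and 12.84 FPKM in the libraries labelled GRIK1 siRNA, so the groups overlapped through NC library 3 alone. The 6 libraries together gave a log2 fold change of 0.04, and without NC library 3 it rose by 0.39 (adjusted p = 0.000111, edgeR). PRKAR1B stayed at 1.43 to 2.03 FPKM with a log2 fold change of -0.13. The ranges of PRKAR1A, PRKAR2A and PRKAR1B did not overlap over the libraries. The summed type II subunits gave a ratio of 1.07 with all libraries and 1.28 against NC libraries 1 and 2, and the type I subunits gave 0.877 and 0.994.

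Anchoring proteins tether PKA to organelles and to its substrates, and AKAP9 was the one that rose. AKAP9 is a large scaffold of the centrosome and Golgi apparatus. Its levels were 2.92, 2.79 and 1.54 FPKM in NC and 4.96, 5.31 and 5.12 FPKM in the libraries labelled GRIK1 siRNA. The groups did not overlap, with means of 2.42 ± 0.762 and 5.13 ± 0.175 FPKM (SD, n = 3 each). AKAP9 was 2.03-fold higher (log2 fold change 1.02, SE 0.20, adjusted p = 0.0437, edgeR) and 1.77-fold higher without NC library 3. AKAP9 lies on the plus strand at chr7:91940840-92110673, and no other gene covers its exonic bases in GENCODE 29. These are 18210 bases, while the deposited exonic size is 26515, so overlap in the remainder was not checked. AKAP9 did not pass in limma-trend on log2(FPKM + 1) or log2(FPKM + 0.1).

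AKAP11, an anchor of type II PKA that also binds GSK3, was the most abundant anchoring protein. It stood at 15.72, 16.03 and 14.85 FPKM in NC and at 13.99, 13.81 and 13.44 FPKM in the libraries labelled GRIK1 siRNA. All 3 of the latter were below all 3 NC libraries, by a small margin. The log2 fold change was -0.26 (SE 0.11, edgeR adjusted p = 0.179), and without NC library 3 it fell by 0.23 (adjusted p = 0.00127, edgeR).

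Among the other anchoring proteins, AKAP8 of the nuclear matrix and AKAP13 had log2 fold changes of 0.47 and 0.45 with groups that did not overlap. AKAP10 (0.30), AKAP12 (0.09), AKAP1 of the mitochondrial outer membrane (-0.31) and AKAP7 (-0.39) had overlapping groups. Overlap was read from normalized counts. In FPKM, the groups of AKAP10 and AKAP12 did not overlap. NC reached 8.20 and 12.35 FPKM, and the libraries labelled GRIK1 siRNA began at 8.55 and 12.42 FPKM. None of the 6 anchoring proteins named here passed the test with all libraries. Without NC library 3, AKAP8, AKAP9, AKAP10 and AKAP13 rose and AKAP1 and AKAP11 fell. They were 4 and 2 of the 8 tested, in a fit that called 16.9% of all tested genes higher and 18.3% lower. Among these anchoring proteins, the largest changes in either direction besides AKAP9 were AKAP10 at 0.52 (adjusted p = 0.000134) and AKAP1 at -0.48 (adjusted p = 0.00235, both edgeR). The summed level of the 13 anchoring proteins was 52.0 ± 6.32 FPKM in NC and 60.3 ± 0.789 FPKM in the libraries labelled GRIK1 siRNA, with ratios of 1.16 to all NC libraries and 1.08 to NC libraries 1 and 2.

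Of the transcription factors and coactivators that receive the PKA signal, 0 of 6 passed the test with all libraries (edgeR and DESeq2), and 1 had an unadjusted p under 0.05. That gene was ATF1, a CREB-family factor, at 12.73, 12.80 and 20.48 FPKM in NC and 11.10, 10.67 and 10.54 FPKM in the libraries labelled GRIK1 siRNA. The groups did not overlap, and NC library 3 was far above the other 5. The log2 fold change was -0.62 (SE 0.24, edgeR adjusted p = 0.170). Without NC library 3, ATF1 fell by 0.27 (adjusted p = 0.0180, edgeR), and DESeq2 without that library did not call it.

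CREB1, the founding member of the family, had a log2 fold change of 0.09 with all libraries and rose by 0.21 without NC library 3 (adjusted p = 0.0144, edgeR). CREM was at 5.60 FPKM in NC library 3 and at 2.94 to 3.73 FPKM elsewhere, and its log2 fold change turned from -0.23 to 0.17 without that library, passing in neither fit. The coactivators CRTC1, CRTC2 and CRTC3 had log2 fold changes of 0.36, 0.08 and 0.24. CRTC2 was at 11.60 to 13.71 FPKM in 5 libraries and at 6.40 FPKM in NC library 3. ATF1 and CRTC2 overlapped in level, ATF1 being the higher in 2 of 6 libraries.

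The exchange factors were low. RAPGEF3, also known as EPAC1, stood at 0.51, 0.61 and 0.41 FPKM in NC and at 0.55, 0.78 and 0.72 FPKM in the libraries labelled GRIK1 siRNA. The groups overlapped, with a log2 fold change of 0.34 (SE 0.21, edgeR adjusted p = 0.328). The value was 0.26 when NC library 3 was left out (adjusted p = 0.301, edgeR). RAPGEF4 was at 0.17 to 0.30 FPKM and was not tested.

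**Figure D3:**
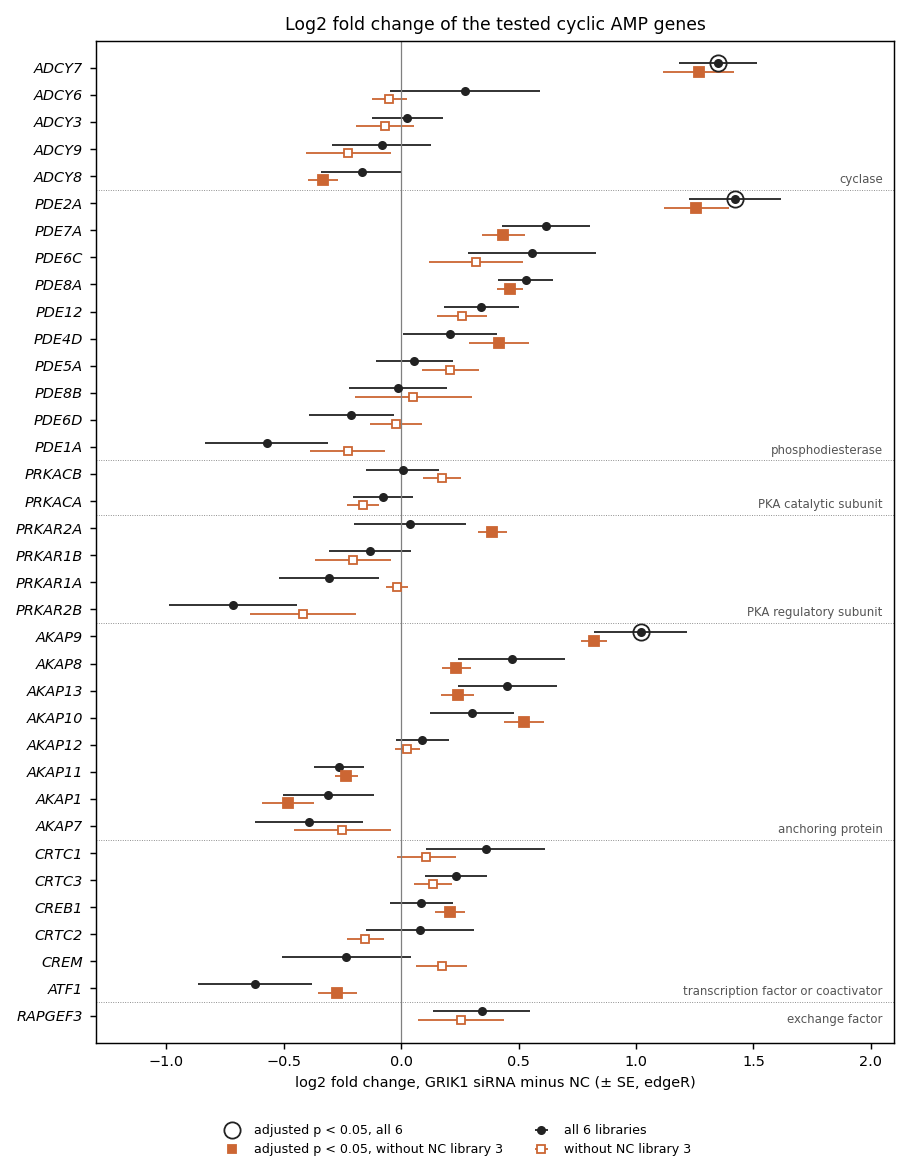
Log2 fold change of the 36 tested genes, libraries labelled GRIK1 siRNA minus NC, with standard error, by role: black for all 6 libraries and orange without NC library 3. Rings mark the 3 genes with adjusted p under 0.05 with all libraries, and filled orange squares mark the 15 genes that passed without NC library 3.

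Over the 36 genes the median log2 fold change was 0.07, with 22 positive and 14 negative values from -0.72 to 1.42. Over all tested genes the median was -0.02. All 3 libraries labelled GRIK1 siRNA were above all 3 NC libraries in normalized counts for 9 of the 36 (25%), beside 19.4% of all tested genes, and below them for 4 (11.1%), beside 19.0%. The 9 were ADCY7, AKAP8, AKAP9, AKAP13, CRTC3, PDE2A, PDE6C, PDE7A and PDE8A, and the 4 were AKAP11, ATF1, PDE1A and PRKAR2B.

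Without NC library 3, 11 of the 36 genes rose (30.6%), beside 16.9% of all tested genes. In the same fit 4 fell (11.1%), beside 18.3%. The 11 were ADCY7, 4 phosphodiesterases, 4 anchoring proteins, PRKAR2A and CREB1. The 4 that fell were ADCY8, AKAP1, AKAP11 and ATF1. Of these 15 genes, ADCY7 and PDE2A had an absolute log2 fold change over 1. The median over the 36 was 0.12, and over all genes 0.01. Between-library dispersion, as edgeR's common estimate, dropped from 0.0391 to 0.00298 when NC library 3 was left out.

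The genes around the pathway were read from 9 lists of G proteins, receptors, kinase partners, other anchors, CREB-family genes, CREB targets, effectors and cyclic GMP genes. Of 229 genes, 123 were tested, and 6 of these were called lower (4.88%, beside 1.48% of all tested genes) and 0 higher (edgeR). At an unadjusted p under 0.05, 13 of the 123 were higher and 29 lower, beside 1897 and 2090 of all 15870 tested genes (edgeR). DESeq2 called 7 higher and 13 lower, beside 5.44% and 5.17% of all tested genes. The median log2 fold change of the 123 genes was -0.08. When NC library 3 was left out, 24 rose (19.5%) and 37 fell (30.1%), beside 16.9% and 18.3% of all tested genes. The 6 lower genes stayed lower in that fit, at -1.47 for LPAR1, -0.87 for PTGER2, -0.65 for GNAI1, -1.26 for PPARGC1A, -0.70 for STC1 and -0.62 for PRKG1, with adjusted p from 4.3e-09 to 0.000908 (edgeR).

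At the receptors and G proteins, upstream of the cyclases, 3 of the 6 lower genes were found. LPAR1, a lysophosphatidic acid receptor that couples to inhibitory G proteins among others, was at 6.77, 7.04 and 7.59 FPKM in NC and at 2.46, 2.70 and 2.45 FPKM in the libraries labelled GRIK1 siRNA. It fell by 1.59 on the log2 scale (adjusted p = 0.0191, edgeR). PTGER2, a prostaglandin receptor that couples to the stimulatory G protein, fell by 0.88 (adjusted p = 0.0472, edgeR). GNAI1, an inhibitory G protein alpha subunit, fell by 0.83 (adjusted p = 0.0433, edgeR). Of the 22 tested G protein genes and regulators 1 passed, as did 1 of 6 receptors coupled to the stimulatory and 1 of 6 coupled to the inhibitory G protein. Their medians were -0.20, -0.22 and 0.06. Over all tested genes, 1.48% were called lower and 1.61% higher. At an unadjusted p under 0.05, 1, 1 and 0 genes of these lists were higher and 7, 2 and 1 lower (edgeR). Among all 15870 tested genes, 1897 and 2090 were. DESeq2 called 0 higher in each list and 4, 1 and 1 lower, beside 5.44% and 5.17% of all tested genes. GNAS, the stimulatory alpha subunit, had a log2 fold change of 0.40 with groups that did not overlap (adjusted p = 0.164, edgeR). The most abundant gene of each of these lists did not pass with all libraries and passed without NC library 3. These were CAP1 (0.03 and 0.20), ADORA2B (-0.45 and -0.27) and GABBR1 (-0.07 and -0.48), the last at 1.84 FPKM in NC library 3 and 5.99 to 9.10 FPKM elsewhere. In the fit without NC library 3, 4 of the 22 G protein genes and regulators rose and 7 fell. Of 6 receptors coupled to the stimulatory G protein, 1 rose and 2 fell. Of 6 coupled to the inhibitory G protein, 0 rose and 2 fell. The same fit called 16.9% of all tested genes higher and 18.3% lower.

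Downstream, 2 of 21 tested CREB target genes fell and 0 rose (edgeR), at a median of -0.15, beside 1.48% of all tested genes called lower. At an unadjusted p under 0.05, 2 of the 21 were higher and 7 lower, beside 1897 and 2090 of all 15870 tested genes (edgeR). DESeq2 called 2 higher and 4 lower, beside 5.44% and 5.17% of all tested genes. In the fit without NC library 3, 2 of the 21 rose and 9 fell, beside 16.9% and 18.3%. PPARGC1A, a coactivator of mitochondrial genes, fell by 1.23 (adjusted p = 0.0261, edgeR) from 1.00 to 1.22 FPKM in NC to 0.46 to 0.59 FPKM. STC1, a secreted glycoprotein, fell by 0.65 (adjusted p = 0.0433, edgeR) from 180 to 232 FPKM in NC to 142 to 143 FPKM. PRKG1, the cyclic GMP-dependent kinase, fell by 0.67 (adjusted p = 0.0353, edgeR) and was the 1 of 5 tested cyclic GMP genes to pass, at a list median of -0.32. In the other 4 lists, 0 genes passed in edgeR. At an unadjusted p under 0.05, 9 of 65 tested entries were higher and 11 lower, beside 1897 and 2090 of all 15870 tested genes. Beside 5.44% and 5.17% of all tested genes, DESeq2 called 5 higher and 3 lower in these 4 lists. Their medians were -0.30 for 11 PKA inhibitors and kinase partners, 0.12 for 15 other anchoring proteins, 0.30 for 20 CREB- and ATF-family genes, coactivators and SIK kinases, and -0.12 for 19 other effectors, channels and transporters. The most abundant gene of each of these lists was PPP1CB (-0.34), RAB32 (-0.72), ATF4 (0.07) and POPDC3 (-0.54), and of the cyclic GMP genes GUCY1B1 (0.11). Of these 5, ATF4 at 0.28 and POPDC3 at -0.26 passed without NC library 3.

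**Figure D4:**
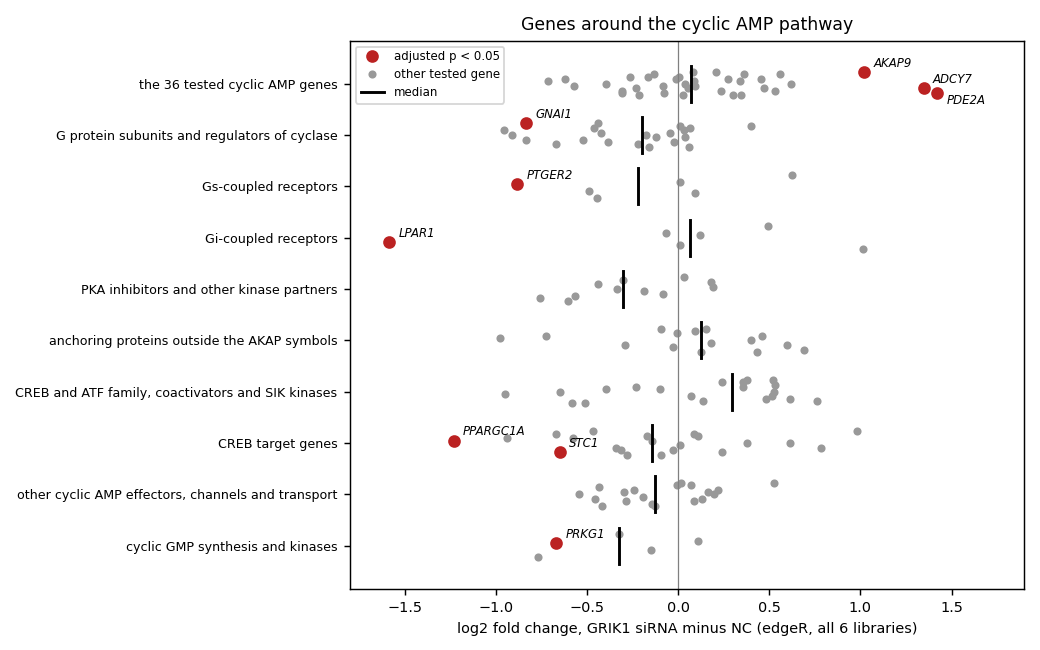
Log2 fold change (libraries labelled GRIK1 siRNA minus NC, edgeR with all 6 libraries) of each tested gene, by list, with a bar at the median. The 3 large points to the right in the upper row are ADCY7, PDE2A and AKAP9, and the 6 large points of the other lists lie to the left of 0.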

How the data were processed

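RNA of U87-MG cells was sequenced in 6 libraries, 3 NC and 3 labelled GRIK1 siRNA, from total RNA extracted with TRIzol and a VAHTS Universal V8 RNA-seq kit. Per the submitters' processing notes, cutadapt 1.9.1, HISAT2, HTSeq and GRCh38 were used. Their settings, and whether counting used strand, are not given in the sources used here. The authors deposited whole-number counts per gene without normalization, and FPKM values. FPKM as the authors computed it is the count divided by the library total and by the exonic size in bases, also deposited, and this formula gave 100% of the values within 0.01. Of the genes, 20417 had no symbol, of which 688 were filled in by gene ID.

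The 15870 genes whose FPKM averaged 0.5 or more were tested on the deposited counts with edgeR 4.0.16 (R 4.3.3), by its quasi-likelihood F test, two-sided, with TMM scaling, no covariate and Benjamini-Hochberg adjustment over all tested genes. Calls used an adjusted p under 0.05. Standard errors are the absolute log2 fold change divided by the square root of F. The scripts were tested on simulated data in which all genes and libraries had the same dispersion. No simulated library stood apart as NC library 3 does, so that test does not cover such a library. Alternatives were DESeq2 1.42.0, limma-trend in limma 3.58.1 on log2(FPKM + 1) and log2(FPKM + 0.1), other scalings and filters, a replicate block and leaving out each library. Groups that do not overlap were read from TMM-normalized counts. With 3 against 3 libraries an exact permutation test cannot go below p = 0.10, so none was used. Overlaps came from GENCODE 29 and promoters from RefSeq, GRCh38.p14.

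The members, lists and rules were chosen with earlier results of these data known. Members were named with values in every library if they passed with all libraries, if they passed with an absolute log2 fold change over 1 without NC library 3, or if they had the highest mean FPKM or the largest change of their role. In other lists, genes that passed (at most 4 per list) and the most abundant gene were named. GNAS, GFAP, the other markers and members discussed by fold change only were named beside this rule after their values were seen. Same-numbered libraries of the groups did not deviate together (correlations of -0.070, 0.044 and -0.043), so the numbers were not used as pairs.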

Additional observations from a re-analysis of the deposited data

How the results depend on the processing

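The 3 members called depended on which libraries entered. DESeq2 called 5 and 1684 of all genes (490 in edgeR). Leaving out 1 library gave 0 to 15 members, 0 to 2 of them past a log2 fold change of 1, 0 to 5591 of all genes and 0 to 61 of the other pathway genes (6 with all libraries). The high ends are without NC library 3, and 0 was found without any 1 of the other 5, where 2238 to 4434 genes and 5 to 9 members had an unadjusted p under 0.05. With the replicate number as a block, 0 members, 0 members past a log2 fold change of 1, 0 genes and 0 other pathway genes were called in edgeR, the smallest adjusted p being 0.0854, and 3324 genes and 8 members had an unadjusted p under 0.05. Without NC library 3, DESeq2 called 14 members, 4210 genes and 42 other pathway genes, and edgeR without a filter called 15, 5803 and 57. These last alternatives were added after seeing the data. With no filter and all libraries, 1403 genes and 16 other pathway genes were called. DESeq2 called 20 other pathway genes. Limma-trend on log2(FPKM + 1) called 2 members, 0 past a log2 fold change of 1, and 3 other pathway genes, and on log2(FPKM + 0.1) 280 genes and 2 other pathway genes. It called ADCY7 and PDE2A both times, and moved the median log2 fold change of all genes from -0.02 to 0.06 and 0.09. ADCY7, PDE2A and AKAP9 stayed positive in 19 of 19 fits, at 0.70 to 1.44, 0.86 to 1.59 and 0.790 to 1.149, and were called in 13, 13 and 11. Among the 11 members given in every library and the named genes of the lists, signs turned for PRKACA (0.0125 and 0.0154 in limma), ATF4 (-0.0327 and -0.0094) and CAP1 (-0.0414 and -0.0364) without NC library 1 or 2, and GABBR1 (0.180 and 0.266 in limma, 0.151 with the block, 0.277 and 0.130 without NC library 1 or 2). Leaving out each NC library in turn gave -0.0414 to 0.196 for CAP1 and -0.484 to 0.277 for GABBR1. The summed phosphodiesterase ratio of 1.30 was 1.47 without the members that do not act on cyclic AMP. The cause of these changes was not tested. Counts of 55 to 79 in NC limit the precision for ADCY7 and PDE2A.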
